A study of Homo sapiens with 12 samples.

Results

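The genes described here are the CSF-1 receptor gene CSF1R and 9 other genes commonly read as macrophage genes, CD14, CD68, CD163, MRC1, FCER1G, TYROBP, AIF1, LAPTM5 and CYBB. They were taken by symbol from the deposited expression tables, and each of the 10 symbols was found on 1 row of the 56266 genes listed. RNA-Seq was carried out on the human embryonic stem cell (hESC) line H1 and on a GATA2-/- line made from it, in order to ask how loss of GATA2 acts on blood formation. The mutant was made with TALENs, which cut GATA2, and a targeting vector, which brought a neomycin resistance cassette into the gene. A single line stands for the genotype. Undifferentiated hESCs were compared with hemogenic endothelium (HE), sorted as CD34+CD31+CD43- cells on day 8 of co-culture with the mouse stromal line OP9, and with hematopoietic progenitor cells (HPCs), sorted as CD34+CD43+ cells on day 9. The 10 libraries with tables comprised 2 replicates in each of 5 groups: hESCs labelled GATA2-/-, and HEs and HPCs that were either wild type (WT) or labelled GATA2-/-. The 2 libraries of WT hESCs were not analysed here.

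CSF1R is a receptor tyrosine kinase of the macrophage surface that binds CSF-1 and IL-34 and carries the signal for the survival and growth of macrophages. TYROBP (DAP12) and FCER1G (the Fc receptor common gamma chain) are small membrane adaptors whose cytoplasmic activation motifs bind the kinase SYK. LAPTM5 is a lysosomal membrane protein of blood cells, and AIF1 (IBA1) is a calcium-binding protein tied to actin. CD68 is a glycoprotein of late endosomes and lysosomes, CD163 takes up hemoglobin bound to haptoglobin, and MRC1 is the mannose receptor. CD14 hands lipopolysaccharide to the TLR4 complex, and CYBB is the catalytic subunit of the phagocyte NADPH oxidase. None of these genes is used by macrophages alone. FCER1G also serves receptors of mast cells and platelets, LAPTM5 is found throughout blood cells, and MRC1 and its relatives are also found on some endothelium.

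The values are TPM (transcripts per 1000000, scaled by transcript length), so that levels can be set side by side between genes as well as between libraries. The sequencing depth behind them is unknown. Nothing in the labels says whether replicates came from separate cultures, so the p-values below measure only the spread between these libraries. The replicate 2 libraries of HE and HPC share a tag in their column headers, which replicate 1 libraries lack, and differences within each replicate number are therefore given beside the pooled ones. A gene is said to have risen or fallen where its adjusted p was under 0.05 in limma on log2(TPM + 1), with Benjamini-Hochberg adjustment over all 21543 genes that reached a TPM of 1 in at least 2 libraries. Of the 10 genes, 9 passed this filter and CD14 did not. CYBB passed it through the HPC libraries alone.

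The target of the knockout was examined first. GATA2, a zinc-finger factor of blood stem and progenitor cells, stood at 107 and 78.0 TPM in the WT HE pair and at 111 and 94.1 in the pair labelled GATA2-/-, which overlap. Among HPCs it reached 290.1 and 204 in the WT pair and 112 and 83.8 in those labelled GATA2-/-, and in the hESCs labelled GATA2-/- it was 2.05 and 5.54. A transcript cut short by the cassette would still add to a value summed over the gene, so this level does not check the labels of the HE libraries, and the genotype is cited as labelled throughout.

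The sorted populations carried the markers of their gates. SPN, which encodes CD43, had a TPM from 98.0 to 108 in the 4 HPC libraries and from 1.76 to 8.81 in the 4 HE libraries. The 9 endothelial markers had a summed TPM of 3386 and 3389 in the WT HE pair and of 4295 and 3855 in HEs labelled GATA2-/-, with KDR or CD34 the most abundant, against 661 to 1038 in the HPC libraries. PECAM1, the remaining marker on that list, was not analysed here. PTPRC, the CD45 gene of nearly all mature white blood cells, was listed at 0 in all 4 HE libraries. It was at 0.68 to 3.09 in HPCs and at 0.56 and 3.06 in hESCs, which overlap. Whether any library held macrophages could not be told from the 10 genes, since they differed widely in level. CD14 was listed at 0 in all 4 HPC libraries and in 3 of the 4 HE libraries, and its highest TPM anywhere was 0.22, in an hESC library. CYBB did not exceed a TPM of 1.99. LAPTM5, AIF1, FCER1G, TYROBP and CSF1R, by contrast, had mean TPM from 37.2 to 415 in WT HPCs. The means of the remaining genes there were at most 10.95, and none of the 10 is used by macrophages alone. The 10 genes are hence treated as a set of genes, not as a sign of macrophages, and since these are bulk libraries, fewer cells of a type and less RNA per cell cannot be told apart.

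**Figure D1:**
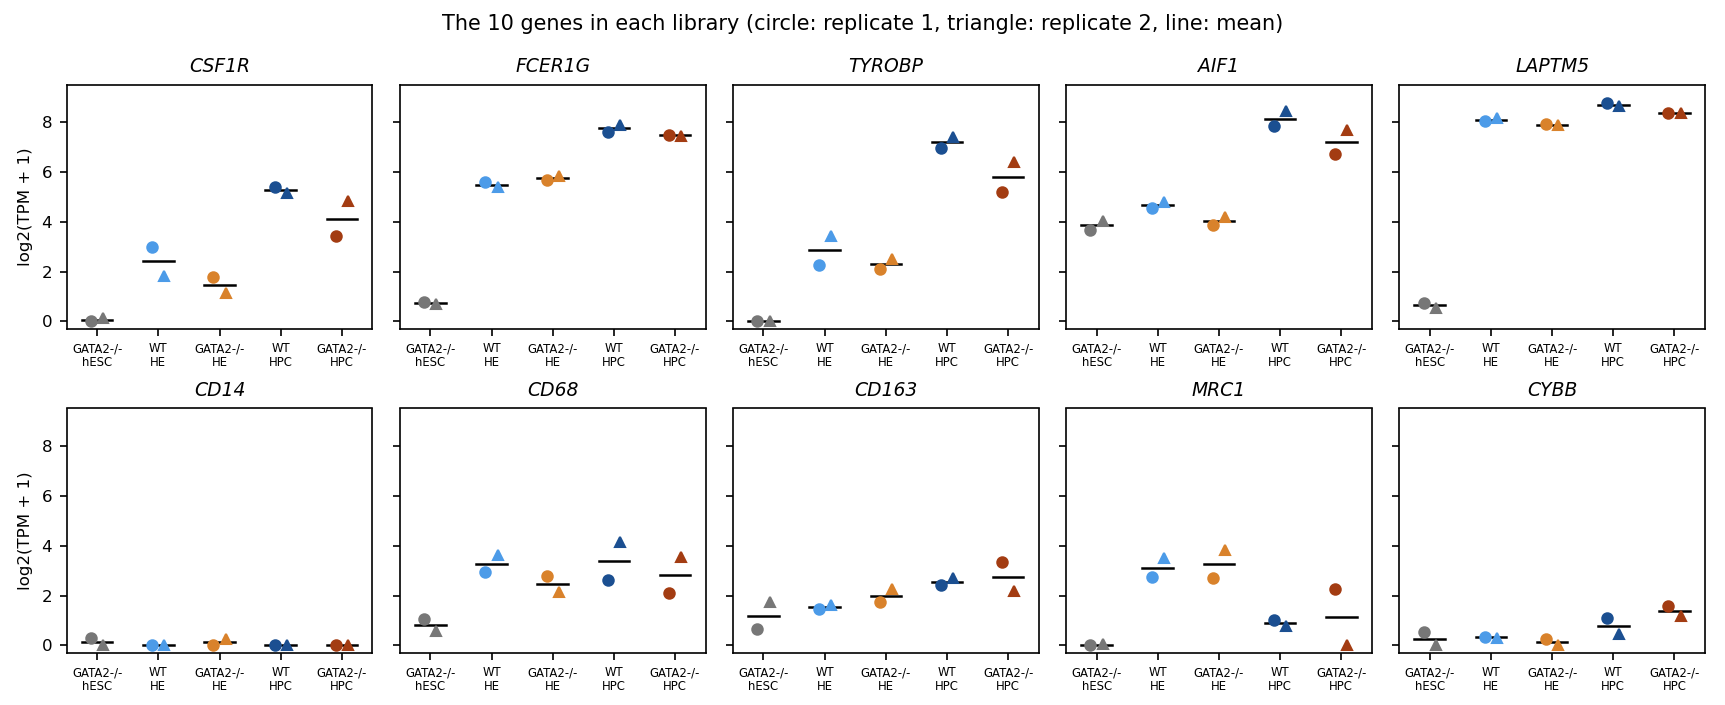
log2(TPM + 1) of the 10 genes in each library of the 5 groups (x axis), with replicate 1 as a circle, replicate 2 as a triangle and the group mean as a line. The upper row holds the 5 genes with the highest levels in HPCs, the lower row the other 5, of which CD14 stays near 0 throughout.

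The set split into genes that were abundant in HPCs and genes that were barely listed. In WT HPCs the mean TPM was 415 ± 32.0 (SD, n = 2) for LAPTM5, 286 ± 82.3 for AIF1, 214 ± 33.2 for FCER1G, 145 ± 30.4 for TYROBP and 37.2 ± 4.47 for CSF1R. In HPCs labelled GATA2-/- LAPTM5 had 326 ± 0.283, FCER1G 176 ± 4.67, AIF1 154 ± 69.6, TYROBP 59.4 ± 34.3 and CSF1R 18.6 ± 12.6. AIF1 and FCER1G, the neighbours that change places between these orders, had overlapping values in both genotypes. The remaining genes had group means from 0 for CD14 to 10.9 ± 8.19 for CD68 in WT HPCs. LAPTM5 alone accounted for most of the summed TPM of the 10 genes in HEs, where it was 262 and 282 of 357 and 386 in WT libraries and 238 and 233 of 321 and 333 in libraries labelled GATA2-/-. In WT HEs its mean was higher than that of 99.2% of all genes listed.

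CSF1R (ENSG00000182578, GRCh37 chr5:149432854-149492935, minus strand) rose from HE to HPC. Its TPM measured 6.92 and 2.55 in WT HEs and 40.4 and 34.1 in WT HPCs. In libraries labelled GATA2-/- it was 2.4 and 1.18 in HEs and 9.7 and 27.5 in HPCs, and 0 and 0.09 in hESCs. Every HPC library lay above every HE library, and the 2 HPC libraries labelled GATA2-/- lay further apart than any other pair. The order of the group means, from low to high, was hESC, HE labelled GATA2-/-, WT HE, HPC labelled GATA2-/- and WT HPC. The log2 difference between HPC and HE was 2.84 (SE 0.539, adjusted p = 0.0118 from limma) in WT cells and 2.68 (SE 0.539, adjusted p = 0.0127 from limma) in cells labelled GATA2-/-. Within replicate 1 it was 2.39 and 1.65 and within replicate 2 it was 3.30 and 3.71, in that order of genotype. The WT call was lost without WT HE replicate 2 (adjusted p = 0.094 from limma) or without WT HPC replicate 1 or 2 (adjusted p = 0.0698 and 0.067 from limma). The call in cells labelled GATA2-/- was lost without HE replicate 2 or HPC replicate 2 of that label (adjusted p = 0.0975 and 0.0798 from limma).

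TYROBP (ENSG00000011600, chr19:36395303-36399197, minus strand) showed the greatest rise of the 10 genes between these stages. Its TPM went from 3.85 and 9.66 in WT HEs to 124 and 167 in WT HPCs, a log2 difference of 4.33 (SE 0.474, adjusted p = 0.000909 from limma). In libraries labelled GATA2-/- it went from 3.25 and 4.63 to 35.2 and 83.6, a log2 difference of 3.50 (SE 0.474, adjusted p = 0.00196 from limma). It was listed at 0 in both hESC libraries. The HE and HPC values did not overlap in either genotype.

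FCER1G (ENSG00000158869, chr1:161185024-161190489, plus strand), the other adaptor, was far above the hESC level in HEs. It had a TPM of 47.2 and 40.6 in WT HEs, 50.3 and 56.2 in HEs labelled GATA2-/-, 190.0 and 237 in WT HPCs and 179 and 173 in HPCs labelled GATA2-/-, against 0.71 and 0.63 in hESCs. The log2 difference between HPC and HE was 2.25 (SE 0.177, adjusted p = 0.000357 from limma) in WT cells and 1.71 (SE 0.177, adjusted p = 0.000603 from limma) in cells labelled GATA2-/-. Thus the adaptors that share SYK as a partner differed in level in HE, where FCER1G was the higher in each of the 4 libraries.

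AIF1 (ENSG00000204472, chr6:31582994-31584798, plus strand) was the member with the highest level in hESCs, with a TPM of 11.9 and 15.4. WT HEs had 22.6 and 27.0, against 13.6 and 17.2 in HEs labelled GATA2-/-, so that the mutant HE values overlapped those of hESCs. HPCs reached 228 and 344 in WT libraries and 105 and 203 in those labelled GATA2-/-. The log2 difference between HPC and HE was 3.45 (SE 0.329, adjusted p = 0.00059 from limma) in WT cells and 3.17 (SE 0.329, adjusted p = 0.000603 from limma) in cells labelled GATA2-/-.

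LAPTM5 (ENSG00000162511, chr1:31205316-31230621, minus strand) changed least among the abundant genes. Its TPM was 437 and 392 in WT HPCs and 326 and 326 in HPCs labelled GATA2-/-, above the 262 and 282 in WT HEs and the 238 and 233 in HEs labelled GATA2-/-. The rise between the stages had a log2 difference of 0.60 (SE 0.139, adjusted p = 0.0275 from limma) in WT cells. In cells labelled GATA2-/- the log2 difference was 0.47 (SE 0.139, adjusted p = 0.0628 from limma), which did not pass. With TPM rescaled without the mitochondrial genes it was 0.60 and passed (adjusted p = 0.0234 from limma), while the WT rise no longer passed without 1 of the 4 WT libraries at a time (adjusted p from 0.0683 to 0.147 from limma). LAPTM5 shares 623 exonic bases with a gene on the opposite strand, and the strand of the reads was not given in the sources used here.

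MRC1 (ENSG00000120586, chr10:18098352-18200091, plus strand) went the other way. It had a TPM of 5.61 and 10.4 in WT HEs, 5.48 and 13.3 in HEs labelled GATA2-/-, 1.01 and 0.7 in WT HPCs and 3.76 and 0 in HPCs labelled GATA2-/-. MRC1 has a near-identical copy in GRCh37, MRC1L1 (chr10:17851362-17953178, plus strand): 95.8% of the 30-base words of the longest MRC1 transcript are also in MRC1L1 transcripts, so short reads could be assigned to either row. MRC1L1 had the higher TPM of the pair in HEs, with 35.9 and 36.2 in WT and 24.3 and 26.5 in libraries labelled GATA2-/-. By the MRC1 row alone the log2 difference between HPC and HE was -2.23 (SE 0.707, adjusted p = 0.0895 from limma) in WT cells. The sum of both rows had a TPM of 41.5 and 46.6 in WT HEs and 6.14 and 1.4 in WT HPCs, and of 29.8 and 39.8 and then 4.52 and 1.84 in cells labelled GATA2-/-. For MRC1 and MRC1L1 summed, a choice made after the values were seen, the level fell by 3.44 (SE 0.518, adjusted p = 0.00403 from limma) in WT cells and by 3.16 (SE 0.518, adjusted p = 0.00479 from limma) in cells labelled GATA2-/-, on the log2 scale.

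**Figure D2:**
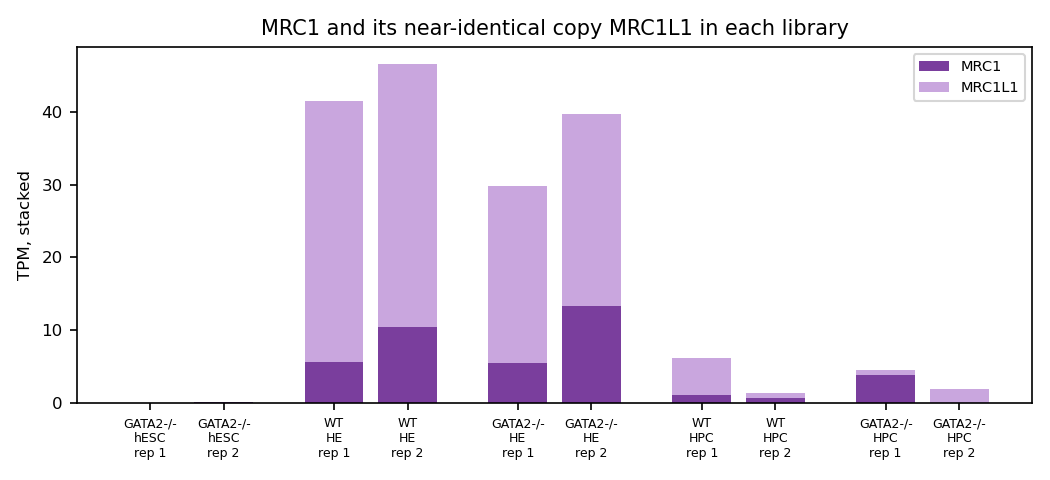
TPM of MRC1 (dark) and MRC1L1 (light), stacked, in each of the 10 libraries. The HE libraries sum to between 29.8 and 46.6 and the HPC libraries to between 1.4 and 6.14.

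The endothelial markers moved with MRC1 between the stages. All 9 of them fell from HE to HPC in both genotypes, where 6.59% of all genes fell in WT cells and 7.24% in cells labelled GATA2-/-. The median log2 difference of these markers was -2.72 in WT cells and -2.30 in cells labelled GATA2-/-. Their part in the lower mannose receptor level in HPCs was not tested.

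The other 4 genes stayed low or did not pass. CD68 (ENSG00000129226, chr17:7482809-7485429, plus strand) had a TPM of 6.67 and 11.3 in WT HEs, 5.94 and 3.39 in HEs labelled GATA2-/-, 5.16 and 16.7 in WT HPCs and 3.34 and 10.7 in HPCs labelled GATA2-/-. The replicates of HPC lay further apart than the group means. Of its exonic bases, 1765 are shared with ENSG00000264772 on the same strand, whose TPM was between 0.56 and 6.06, so its level is uncertain. CD163 (ENSG00000177575, chr12:7623407-7656489, minus strand) had a TPM of 1.79 to 3.81 in the HE libraries and of 3.48 to 9.05 in the HPC libraries, with 0.57 and 2.3 in hESCs. CYBB (ENSG00000165168, chrX:37639271-37672714, plus strand) lay at 0 to 0.27 in HEs and at 0.36 to 1.99 in HPCs. CD14 (ENSG00000170458, chr5:140011313-140013285, minus strand) has been given above.

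Counted together, 5 of the 9 genes tested rose from WT HE to WT HPC, which were CSF1R, TYROBP, FCER1G, AIF1 and LAPTM5, and none fell. Among all 21543 genes, 3.32% rose and 6.59% fell in that comparison. The median log2 difference was 1.01 over the 9 genes and -0.01 over all genes. In cells labelled GATA2-/-, 4 of the 9 rose, the same without LAPTM5, and none fell, where 5.5% of all genes rose and 7.24% fell. Of all calls in that comparison, 43.2% were rises, and 53.6% with TPM rescaled without the mitochondrial genes. These counts rested on the variance shared across groups: fitted on the 4 libraries compared and no others, 0 of the 9 genes and 0 of all genes passed in limma, although 7 and 6 of the 9 had an unadjusted p under 0.05, against 4423 and 5040 of all genes.

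**Figure D3:**
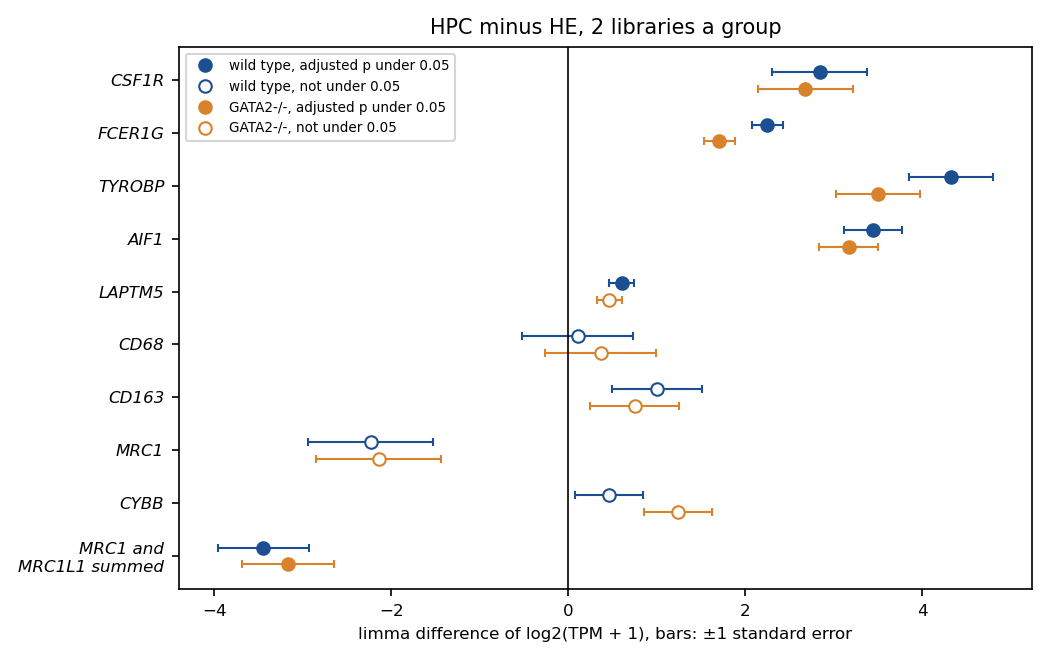
Difference of log2(TPM + 1) between HPC and HE from limma (x axis) for 9 genes and for the sum of MRC1 and MRC1L1, in WT cells and in cells labelled GATA2-/-, with 2 libraries in each group, bars of 1 standard error and filled points where the adjusted p was under 0.05. CSF1R, FCER1G, TYROBP and AIF1 are filled on the right in both genotypes, and the summed mannose receptor rows on the left.

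Some lists of blood cell markers, but not all, had higher sums in HPCs beside these rises. The 10 erythroid markers had a summed TPM of 118 and 74.1 in the WT HE pair and of 5016 and 14352 in WT HPCs, with the embryonic and fetal globins HBE1 and HBG2 the most abundant in HPCs. The 7 megakaryocyte markers summed to 136 and 113 in WT HEs and to 1479 and 1682 in WT HPCs, led by ITGA2B. The 7 mast cell and basophil markers summed to 5.64 and 3.13 and then to 103 and 113, of which HDC made up 96.7 and 107, while the mast cell genes TPSAB1, TPSB2, MS4A2 and CMA1 were listed at 0 in both WT HPC libraries. The 8 neutrophil markers summed to at most 7.37 in any library, with ELANE listed at 0 in all 10. The 7 stromal markers, which could come from human cells or from OP9 reads although the sort also stained the human cell marker TRA-1-85, summed to 369 to 682 in HEs and to 84.1 to 206 in HPCs, led by COL1A2 or COL1A1. The 6 hESC markers summed to 5631 and 4916 in hESCs and to 179 to 334 in HEs and HPCs, where LIN28A was the most abundant and NANOG was at 0 in all but 1 library. The 8 general blood markers summed to 716 to 1186 in HEs and to 442 to 529 in HPCs, led by CD34, with PTPRC at 0 in HEs. CD34, also an endothelial marker, made up 605 to 1060 of these sums in HEs. Of this list CD34 and KIT fell from HE to HPC in both genotypes, whereas SPN, CORO1A and WAS rose and the others did not pass. The part of the cell types on these lists in the rise of the 5 genes was not tested.

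Against hESCs, comparisons were possible only among libraries labelled GATA2-/-. From hESC to HE, TYROBP, FCER1G, LAPTM5 and MRC1 rose, 4 of the 9, where 13.9% of all genes rose and 16.1% fell. The log2 difference was 7.24 (SE 0.139, adjusted p = 5.8e-08 from limma) for LAPTM5 and 5.02 (SE 0.177, adjusted p = 7.17e-07 from limma) for FCER1G. CSF1R had a log2 difference of 1.38 (SE 0.539, adjusted p = 0.0869 from limma), which did not pass, and AIF1 a difference of 0.17 (SE 0.329, adjusted p = 0.762 from limma). From hESC to HPC, 7 of the 9 rose, where 14.2% of all genes rose and 16.4% fell. The calls of CD68 and CD163, at log2 differences of 2.01 and 1.56, were lost when most single libraries were left out, with adjusted p up to 0.223 without HPC replicate 2 labelled GATA2-/- for CD68 and up to 0.267 without hESC replicate 1 for CD163, both from limma. CSF1R and AIF1 were among the genes that rose, with log2 differences of 4.06 (SE 0.539, adjusted p = 0.000635 from limma) and 3.33 (SE 0.329, adjusted p = 0.000127 from limma). LAPTM5 and FCER1G were thus already far above the hESC level in HE, whereas CSF1R and AIF1 passed against hESCs in HPCs and not in HEs. With a pseudocount of 0.1 CSF1R passed in HEs as well (adjusted p = 0.0064 from limma), and AIF1 did not. The calls of TYROBP and MRC1 in HE were lost without either hESC library (adjusted p from 0.0593 to 0.0765 from limma). That of MRC1 was also lost without HE replicate 2 labelled GATA2-/- (adjusted p = 0.0683 from limma). Time and sorted population change together here and cannot be told apart.

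The start regions of the 4 genes that rose in both genotypes are shown since these genes moved together and since the factors known to act on macrophage promoters can be searched for in them. RefSeq's promoter windows, 250 bases before to 50 after a gene's start, held 11 windows for 9 of the 10 genes, taken from build GRCh38.p14. Each of the 11 was found once, unchanged, on its chromosome of GRCh37, and the positions given are those of GRCh37. CSF1R has a start upstream and another 26811 bases downstream, inside the gene; the downstream one is the start that macrophages are known to use. The windows are written 5' to 3' along the gene, and capitals mark matches to the searched motifs. These were GAGGAAGT for PU.1, TGTGGT for RUNX factors, AGATAA for GATA factors and TTGCNNAA for C/EBP factors, each read on both strands, and no 2 matches overlapped.
CSF1R, downstream start, chr5:149466068-149466367, minus strand, within the gene, 103 bases exonic: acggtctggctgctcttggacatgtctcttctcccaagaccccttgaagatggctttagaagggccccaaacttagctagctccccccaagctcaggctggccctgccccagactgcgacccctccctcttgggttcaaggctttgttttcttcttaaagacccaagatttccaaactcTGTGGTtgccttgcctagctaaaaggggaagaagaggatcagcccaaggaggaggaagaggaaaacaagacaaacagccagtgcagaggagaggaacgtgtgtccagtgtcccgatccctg
TYROBP, chr19:36399148-36399447, minus strand, 50 bases exonic: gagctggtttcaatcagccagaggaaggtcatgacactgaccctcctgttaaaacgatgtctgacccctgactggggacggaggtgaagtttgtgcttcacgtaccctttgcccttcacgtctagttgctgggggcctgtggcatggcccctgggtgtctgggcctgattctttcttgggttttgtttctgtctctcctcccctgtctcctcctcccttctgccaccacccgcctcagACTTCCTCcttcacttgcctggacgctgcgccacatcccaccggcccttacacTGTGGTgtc
AIF1, downstream start, chr6:31583518-31583817, plus strand, within annotated exons of the gene: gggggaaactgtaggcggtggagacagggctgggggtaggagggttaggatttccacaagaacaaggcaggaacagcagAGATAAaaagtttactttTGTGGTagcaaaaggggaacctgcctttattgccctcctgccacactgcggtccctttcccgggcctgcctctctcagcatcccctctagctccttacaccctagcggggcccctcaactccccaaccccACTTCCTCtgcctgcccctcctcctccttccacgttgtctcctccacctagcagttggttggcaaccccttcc
FCER1G, chr1:161184835-161185134, plus strand, 111 bases exonic: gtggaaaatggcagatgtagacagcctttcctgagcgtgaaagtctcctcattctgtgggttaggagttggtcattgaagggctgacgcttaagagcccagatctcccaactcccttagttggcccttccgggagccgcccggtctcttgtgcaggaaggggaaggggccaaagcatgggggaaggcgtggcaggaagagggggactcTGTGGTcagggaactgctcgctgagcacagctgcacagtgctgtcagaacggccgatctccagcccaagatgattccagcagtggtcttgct
The window of CSF1R holds TGTGGT from 71 bases before the start. TYROBP and AIF1 hold ACTTCCTC, the reverse complement of GAGGAAGT, from 12 and 23 bases before theirs. TGTGGT also stands in the windows of FCER1G and AIF1 before the start and in that of TYROBP after it, and AIF1 alone of the 4 holds AGATAA. Among the 11 windows of the 9 genes, 2 held the PU.1 motif, 4 the RUNX motif, 2 the GATA motif and 2 the C/EBP motif. Among all 35116 windows in the table the shares were 2.59%, 13.1%, 10.3% and 10.5%. A match is a run of letters and no measurement of binding, and the windows of LAPTM5, of CD14 and of the upstream starts of CSF1R and AIF1 held none of these letters. Only these exact letters were searched, so a window without a match is not shown to lack a site. The downstream CSF1R window, for instance, holds GAGGAAGA, which differs from GAGGAAGT in the last base. MRC1 had no window.

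Loss of GATA2 was then examined within each stage. In HEs, 0 of the 9 genes passed between the genotypes, where 4 of all genes, or 0.0186%, did. No member had an unadjusted p under 0.05 from limma, against 1045, or 4.85%, of all genes. The CSF1R values were 6.92 and 2.55 in WT HEs and 2.4 and 1.18 in those labelled GATA2-/-, a log2 difference of -0.96 (SE 0.539, adjusted p = 1 from limma), with -1.22 within replicate 1 and -0.70 within replicate 2. Without WT HE replicate 1 it was -0.38 and without WT HE replicate 2 it was -1.54. TYROBP, at -0.56 (SE 0.474, adjusted p = 1 from limma), came to 0.01 without WT HE replicate 2. AIF1 had a log2 difference of -0.66 (SE 0.329, adjusted p = 1 from limma), with -0.69 and -0.62 within the replicate numbers. Both libraries labelled GATA2-/- lay below both WT libraries for CSF1R, CD68, AIF1 and LAPTM5, 4 of the 9, leaving aside CYBB at a TPM of at most 0.27, a pattern that 16.5% of all genes showed. CD163 and FCER1G showed the opposite pattern, as did 13.8% of all genes. The medians were -0.21 over the 9 genes and -0.01 over all genes. Beside these values, the megakaryocyte markers summed to 136 and 113 in WT HEs and to 63.4 and 39.97 in HEs labelled GATA2-/-, led by ITGA2B, with PPBP at 0 in each. Of that list PF4, a platelet chemokine, fell by 2.79 on the log2 scale (SE 0.265, adjusted p = 0.0249 from limma). This call was lost with only the HE libraries in the fit and without any 1 of the 8 libraries other than the WT HPC pair, since no gene was then called. The erythroid markers summed to 118 and 74.1 and to 33.7 and 25.5, with AHSP at 0 in each. The part of such cells in the HE values was not tested.

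In HPCs, 0 of the 9 genes passed between the genotypes as well, where 13 of all genes, or 0.0603%, did. An unadjusted p under 0.05 from limma was reached by 3 of the 9, and by 1925, or 8.94%, of all genes. These 3 were TYROBP, with a log2 difference of -1.39 (SE 0.474, adjusted p = 0.433 from limma), AIF1, with -0.94 (SE 0.329, adjusted p = 0.442 from limma), and LAPTM5, with -0.34 (SE 0.139, adjusted p = 0.508 from limma). CSF1R had a log2 difference of -1.12 (SE 0.539, adjusted p = 0.592 from limma), with -1.95 within replicate 1 and -0.30 within replicate 2. Both libraries labelled GATA2-/- lay below both WT libraries for CSF1R, FCER1G, TYROBP, AIF1 and LAPTM5, 5 of the 9, a pattern that 13% of all genes showed. CYBB lay above in both, as did 19.7% of all genes. The medians were -0.34 over the 9 genes and 0.05 over all genes.

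The size of the differences of CSF1R, TYROBP and AIF1 depended on HPC replicate 1 labelled GATA2-/-. That library had the lowest TPM of the 4 HPC libraries for CSF1R, TYROBP and AIF1, with 9.7, 35.2 and 105. Without it the log2 difference was -0.42 for CSF1R, -0.77 for TYROBP and -0.46 for AIF1, and without the other library labelled GATA2-/- it was -1.83, -2.00 and -1.41. FCER1G, with -0.27 (SE 0.177, adjusted p = 0.699 from limma), went from -0.11 to -0.43 as single WT libraries were left out.

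**Figure D4:**
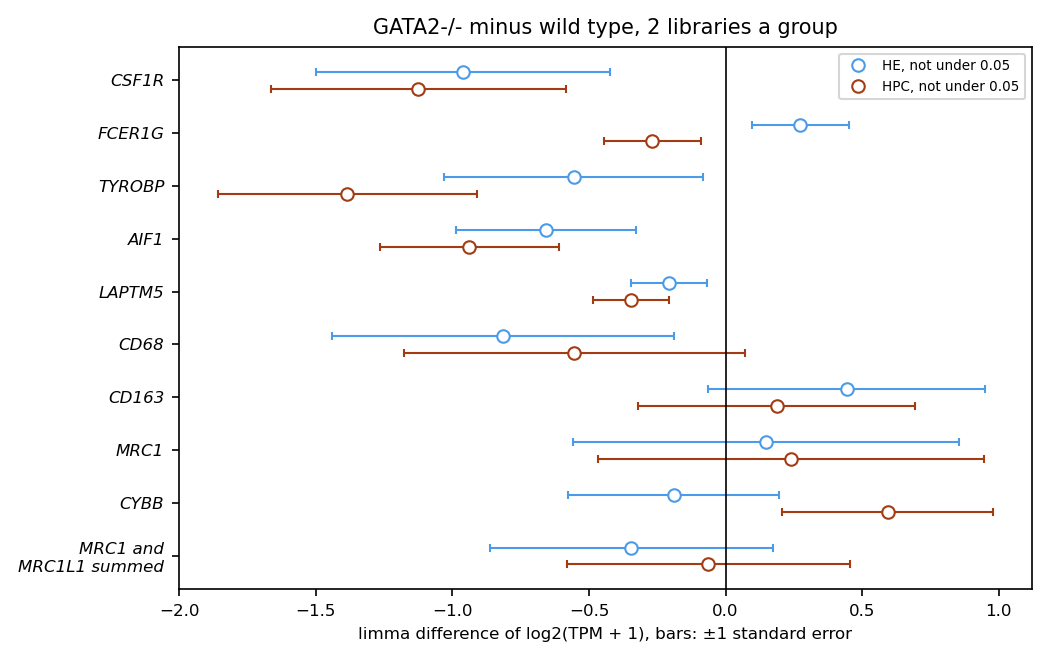
Difference of log2(TPM + 1) between libraries labelled GATA2-/- and WT libraries from limma (x axis) for 9 genes and for the sum of MRC1 and MRC1L1, in HEs and in HPCs, with 2 libraries in each group and bars of 1 standard error. All points are open, since no adjusted p was under 0.05. CSF1R, TYROBP, AIF1 and LAPTM5 lie left of 0 in both stages and FCER1G lies on opposite sides.

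Markers of other cell types were set beside these values in HPCs, and 0 of them passed between the genotypes in limma, with 3 of 7 megakaryocyte, 1 of 3 mast cell, 3 of 8 general blood and 1 of 9 endothelial markers tested at an unadjusted p under 0.05. They did not share a direction. Log2 differences were -1.49 for PF4, -2.08 for PPBP, -0.91 for the mast cell marker FCER1A and -0.70 for VAV1. The others were 1.39 for TUBB1, 1.39 for KIT and 0.56 for CD34, which is on both the blood and the endothelial list. The 7 megakaryocyte markers summed to 1479 and 1682 in WT HPCs and to 911 and 1370 in those labelled GATA2-/-, with ITGA2B at 1147, 1258, 736 and 1140 in the same order and with PPBP and GP9 listed at 0 in replicate 1 labelled GATA2-/-. The mast cell and basophil markers summed to 103 and 113 and to 67.4 and 85.2, with HDC the most abundant in each. The 8 lymphoid markers summed to 20.6 and 18.7 and to 7.15 and 14.0, with NKG7 the most abundant and MS4A1 at 0 in each. The neutrophil markers summed to 1.96 and 2.12 and to 4.76 and 7.37, and the erythroid markers to 5016 and 14352 and to 7817 and 16334, which overlap. Mitochondrial genes took 8.66% and 9.61% of the TPM in WT HPCs and 15.1% and 14.8% in those labelled GATA2-/-. Rescaled without those genes, the log2 differences were -1.04 for CSF1R, -1.29 for TYROBP, -0.84 for AIF1 and -0.25 for LAPTM5. The part of the other cell types in the lower values of CSF1R, FCER1G, TYROBP, AIF1 and LAPTM5 was not tested.

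The difference of the genotype effect between HPC and HE was tested directly. It passed for 0 of the 9 genes and for 0 of all genes in limma (0%), with 0 of the 9 and 1281 of all genes at an unadjusted p under 0.05. For CSF1R it was -0.16 on the log2 scale (SE 0.762, adjusted p = 1 from limma). The data do not tell whether the genotype mattered more for CSF1R in one stage than in the other.

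The genes that make, receive or pass on the signals of the set were then described from lists of pathway genes. Of the 2 ligands of CSF1R, CSF1 had a TPM from 5.68 to 9.14 in HEs, from 2.52 to 3.66 in HPCs and of 1.55 and 1.98 in hESCs. IL34 had its highest level in hESCs, with 9.24 and 7.78, and was at most 1.96 elsewhere. CSF1 values were thus higher in every HE library than in any HPC or hESC library. SPI1, which encodes PU.1, a factor that acts on CSF1R, had a TPM of 35.8 and 22.2 in WT HEs and 6.87 and 2.41 in HEs labelled GATA2-/-, and of 195 and 151 in WT HPCs and 81.0 and 118 in HPCs labelled GATA2-/-. Its log2 difference between the genotypes was -2.50 (SE 0.415, adjusted p = 0.25 from limma) in HEs and -0.81 (SE 0.415, adjusted p = 0.624 from limma) in HPCs. Within the replicate numbers it was -2.22 and -2.77 in HEs and -1.26 and -0.35 in HPCs. The groups did not overlap in either stage, but neither difference passed.

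Of this list of 13 ligands and regulators of CSF1R, 11 were tested and 0 passed between the genotypes in either stage. From HE to HPC, SPI1, RUNX1 and FOS rose in both genotypes. MAF, a transcription factor of macrophages and lymphocytes, fell in WT cells. The most abundant in HPCs were FOS, RUNX1 and FLI1, with mean TPM over the 4 HPC libraries of 285, 278 and 183. FOS had log2 differences between the genotypes of -1.67 (SE 0.323, adjusted p = 0.372 from limma) in HEs and -0.81 (SE 0.323, adjusted p = 0.502 from limma) in HPCs.

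**Figure D5:**
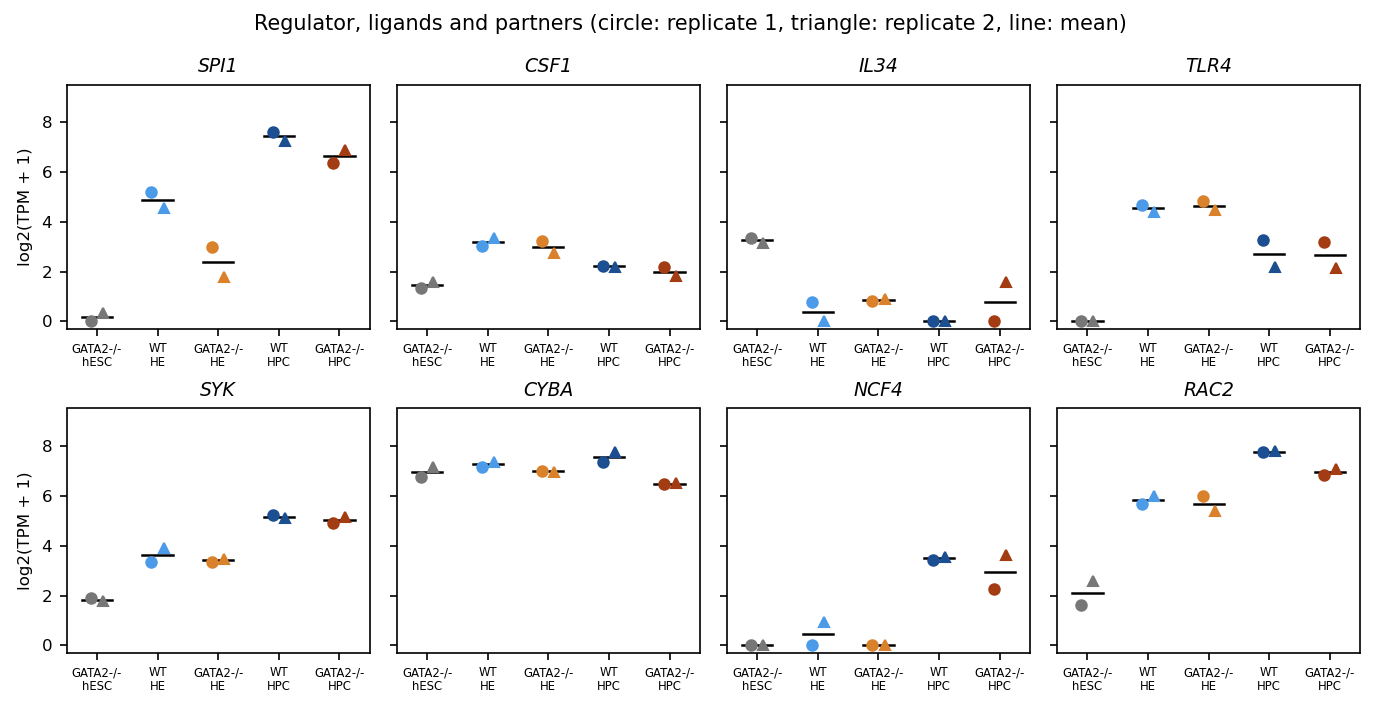
log2(TPM + 1) of SPI1, the ligand genes CSF1 and IL34, TLR4, SYK and 3 NADPH oxidase genes in each library of the 5 groups (x axis), with replicate 1 as a circle, replicate 2 as a triangle and the group mean as a line. SPI1, SYK, NCF4 and RAC2 are higher in the HPC libraries than in the HE libraries, and TLR4 is lower.

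Several of the kinases and receptors that work with TYROBP and FCER1G rose from HE to HPC as well. Of 23 such genes 18 were tested, and 7 rose and 0 fell from HE to HPC in each genotype. Among all genes 3.32% rose and 6.59% fell in WT cells, and 5.5% rose and 7.24% fell in cells labelled GATA2-/-. SYK, BTK, PLCG2, HCST and PTPN6 were among the listed genes that rose in both. FCER1A, which passed the filter only through the HPC libraries, rose in WT cells and FCGR2A in cells labelled GATA2-/-. The median log2 difference of the 18 was 0.91 in WT cells and 0.78 in cells labelled GATA2-/-, against -0.01 and 0.03 over all genes. SYK had a TPM of 9.17 to 13.9 in the HE libraries and of 29.4 to 36.4 in the HPC libraries, and its HPC values overlapped between the genotypes. BTK, a kinase downstream of SYK, was the most abundant in HPCs, with a mean TPM of 303, followed by the phosphatase PTPN6, with 136, and the kinase FYN, with 133. None of the 18 passed between the genotypes, and the medians were -0.35 in HEs and -0.13 in HPCs, against -0.01 and 0.05 over all genes.

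The genes of the NADPH oxidase differed widely in level. CYBA, which encodes the partner subunit of CYBB, was abundant in every library, with a TPM from 88.3 to 214, and RAC2, its blood-cell GTPase, reached 215 and 220 in WT HPCs and 114 and 135 in HPCs labelled GATA2-/-. The cytosolic subunit gene NCF1 had a TPM of at most 2.42. It has the copies NCF1B and NCF1C, both listed at 0 in all libraries, so its value is uncertain. NCF4 was at most 0.93 in HEs and lay between 3.79 and 11.3 in HPCs. It passed the filter only through the HPC libraries, so its rise is not independent of the filter. Of the 7 genes on this list, NCF4 and RAC2 rose and RAC1 fell from HE to HPC in both genotypes, and 0 passed between the genotypes. CYBA had the smallest p of these between the genotypes in HPCs, with 163 and 214 in WT and 88.3 and 89.3 in libraries labelled GATA2-/-, a log2 difference of -1.06 (SE 0.186, adjusted p = 0.153 from limma). Within the replicate numbers the CYBA difference was -0.88 and -1.25.

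In the receptor complex that CD14 serves, TLR4 had a TPM of 19.9 to 27.1 in the HE libraries and of 3.47 to 8.53 in the HPC libraries, was listed at 0 in hESCs, and fell from HE to HPC in both genotypes. LY96 (MD-2), the subunit that binds lipopolysaccharide beside TLR4, was at most 2.46 and was listed at 0 in all 4 HPC libraries. Of the 13 genes on this list only 5 could be tested, of which MYD88, with a mean TPM of 39.4 in HPCs, was the most abundant, followed by IRAK4, with 10.8, and TLR4. None passed between the genotypes.

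Among 16 other scavenger, lectin and phagocytic receptors 11 were tested. STAB1, a scavenger receptor of sinusoidal endothelium and of some macrophages, fell from HE to HPC in both genotypes, from 336 and 403 to 202 and 121 in WT libraries. VSIG4, a complement receptor of tissue macrophages, rose in WT cells, with 0.42 and 0.71 in HEs and 7.05 and 6.04 in HPCs, but it passed the filter only through those 2 WT HPC libraries. Its TPM in the HPCs labelled GATA2-/- was 0.4 and 0.48. Between the genotypes 0 of the 11 passed in either stage. SCARB1 and AXL followed STAB1 in abundance in HPCs, with mean TPM of 56.1 and 8.90, and neither passed between the stages.

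Of 29 other monocyte and macrophage genes 18 were tested. CD33, LYZ, LST1 and PLEK rose from HE to HPC in both genotypes and CD74 in WT cells, whereas APOE fell in cells labelled GATA2-/-. CD33, an early myeloid surface receptor, had a TPM of 6.28 to 8.98 in the HE libraries and of 54.5 to 71.9 in the HPC libraries, with overlapping genotypes. CTSB and APOE were the other genes among the most abundant in HPCs, with mean TPM of 134 and 70.5. Between the genotypes 0 of the 18 passed in either stage, and 5, all with lower means in libraries labelled GATA2-/-, reached an unadjusted p under 0.05 from limma in HPCs, where 8.94% of all genes did in either direction. Of the 13 lysosome genes all 13 were tested and 0 changed between HE and HPC in either genotype, with CD63, LAPTM4B and CTSD the most abundant in HPCs at mean TPM of 695, 329 and 201.

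The genes whose pattern was most like that of CSF1R were sought by the Pearson correlation of log2(TPM + 1) over the 10 libraries, among 10684 genes whose TPM averaged 5 or more and a RefSeq protein. The highest were UNC13D (r = 0.986), SULT1A1 (0.985), PTPN7 (0.979), APOBR (0.979), ARHGAP9 (0.976), KCNK6 (0.973), WAS (0.973), LRMP (0.973), PLCG2 (0.972) and CD200R1 (0.972). The 10 points share the order of the stages, so that any gene low in hESCs and high in HPCs scores well. SPI1 stood at rank 18 (0.969), TYROBP at rank 42 (0.958), AIF1 at rank 135 (0.935), FCER1G at rank 429 (0.866), LAPTM5 at rank 1038 (0.739) and CD68 at rank 1144 (0.719). UNC13D, a protein of granule release, had a TPM of 35.6 and 15.3 in WT HEs and 15.9 and 8.97 in HEs labelled GATA2-/-, and of 125 and 82.3 and of 54.6 and 69.1 in the corresponding HPCs. ARHGAP9 had 34.1 and 27.8, 14.2 and 10.3, 131 and 119, and 48.6 and 70.9 in that order of groups. The genes were chosen by these same values, so the likeness in the order of the groups follows from the choice. WAS and PLCG2 had overlapping genotypes in HPCs, unlike CSF1R.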

How the data were processed

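The authors extracted RNA with Trizol, made TruSeq libraries, read them single-end on a MiSeq, trimmed the reads with Trimmomatic and aligned them with Bowtie to hg19 (GRCh37), and deposited 1 table of TPM per library. The submitters' processing notes also name RSEM and mm10 without a role, and how mouse OP9 reads were treated is not given in the sources used here. The TPM of each library summed to about 1000000, so read numbers, and the precision they give, are unknown.

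Groups followed the labels. TPM was taken to log2(TPM + 1), genes that reached a TPM of 1 in 2 or more libraries were kept, and 1 model over the 5 groups was fitted with limma 3.58.1 in R 4.3.3 (trended eBayes, two-sided tests, Benjamini-Hochberg adjustment over all genes kept). The comparison software of the study was not rerun. The code was tested on simulated data. Motifs, ranks and sums were computed in Python 3.11.15 with pandas 2.3.3.

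Named were the 10 genes, GATA2, genes of the lists that passed between the genotypes or were the 3 most abundant of a list in HPCs, direct partners of the 10 proteins, and the 10 genes most like CSF1R. Genes of the lists that passed between the stages are named beyond this rule, mostly without values, and were chosen after their values were seen. The members and lists were chosen with earlier results of these data known. Alternatives were another pseudocount, no filter, quantile normalization, rescaling without mitochondrial or hemoglobin genes, eBayes without trend, a replicate block, only the libraries compared, and leaving out each library. The sum of MRC1 and MRC1L1, and the block within each stage, were added after the data were seen. Protein sequences were not used here. Some genes of the lists are counted but not reported by name here.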

Additional observations from a re-analysis of the deposited data

Results flagged for a closer look

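The genotype difference of FCER1G pointed in opposite ways in the 2 stages. Both HEs labelled GATA2-/- lay above both WT HEs, and both HPCs labelled GATA2-/- lay below both WT HPCs. The difference of the genotype effect, HPC minus HE, was -0.54 on the log2 scale (SE 0.251, adjusted p = 0.863 from limma) and did not pass.

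CYBB also changed sign, with both libraries labelled GATA2-/- below WT in HEs and above WT in HPCs, and the difference of the genotype effect was 0.79 (adjusted p = 0.9 from limma). Its TPM was at most 0.27 in HEs and 1.99 in HPCs, and it was tested only because of the HPC libraries, so no direction can be read from the HE values.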

How the results depend on the processing

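Depth is unknown, and 2 libraries per group limit every test. No member passed between the genotypes, or for the difference between the stages, under any alternative run. Among the differences of the members, 395 kept their direction and side of the threshold under alternatives that keep all libraries, 21 lost their call, 6 gained one and 4 changed sign. With 1 library left out these numbers were 453, 29, 5 and 13. The cause of the changes below was not tested, except that fitting fewer libraries leaves fewer residual degrees of freedom.

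Genes called between the genotypes numbered 4 in HEs and 13 in HPCs, and 87 and 29 without the filter, 12 and 20 with eBayes without trend, 0 and 0 with only the libraries compared (1467 and 1613 at an unadjusted p under 0.05 from limma), 6 in HPCs with a pseudocount of 0.1, and 0 to 1 and 0 to 14 without single libraries. For the difference between the stages they numbered 0, 30 without the filter and 0 to 5 without single libraries. From HE to HPC the calls were 2134 in WT cells and 2745 in cells labelled GATA2-/-, then 1035 and 1511 without the filter, 0 and 0 with only the libraries compared, and 849 to 2073 and 1257 to 2685 without single libraries. Of the members 5 and 4 were called, 0 and 0 with only the libraries compared, and 3 to 6 and 3 to 5 without single libraries. Against hESCs there were 6462 calls in HEs and 6586 in HPCs, 4075 to 6478 and 4180 to 6550 without single libraries, and 4386 in HPCs with only the libraries compared. Of the members, 4 were called in HEs, 6 with a pseudocount of 0.1, 2 without the filter and 2 to 4 without single libraries.

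The rise of CSF1R lost its call without the filter in both genotypes (adjusted p = 0.0928 and 0.0899 from limma).

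Between the genotypes MRC1 was 0.15 in HEs and 0.24 in HPCs. Summed with MRC1L1 these became -0.34 and -0.06, with a pseudocount of 0.1 the HPC value became -0.60, and without single libraries they ran from -0.42 to 0.72 and from -0.89 to 1.36. Without single libraries TYROBP in HEs ran from -1.12 to 0.01, and in HPCs CD68 from -1.32 to 0.21 and CD163 from -0.40 to 0.77. From HE to HPC CD68 ran from -0.66 to 0.87 in WT cells and from -0.35 to 1.08 in cells labelled GATA2-/-. The difference between the stages for CSF1R was 0.09 with a pseudocount of 0.1 and ran from -0.87 to 0.54. Rescaling without mitochondrial genes moved the median of all genes between HPC and HE labelled GATA2-/- from 0.03 to 0.13.

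Beyond the header tag of the replicate 2 libraries of HE and HPC, whose meaning is not given in the sources used here, nothing ties replicates with the same number, and they were not treated as pairs: the correlation of their deviations was 0.123 for the HE groups, 0.055 for the HPC groups and -0.014 to 0.032 for the other pairs. With a replicate block 2 genes were called between the genotypes in HEs and 3 in HPCs, and 7 and 1 with the block within each stage. From HE to HPC the replicate block gave 2296 and 3002 calls, with 5 and 4 of the members.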
